A study of Mus musculus with 10 samples.

Results

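Pax5 is the transcription factor that commits lymphoid progenitors to the B lineage. It does so by switching on B-cell genes and by holding down genes of other lineages, a repression that keeps receptors and signalling proteins of progenitors, T cells and myeloid cells out of B cells. When a B cell becomes a plasma cell Pax5 is shut off, and some of the genes it held down can be expressed again. The 10 genes described here are known from earlier work as repressed by Pax5 in B-lineage cells. They are the growth factor receptors Csf1r and Flt3, the receptor Notch1, the chemokine receptor Ccr2, the Fc receptor subunit Fcer1g, the T-cell co-stimulatory receptor Cd28, the T-cell signalling adaptors Lat and Grap2, the transcriptional cofactor Lmo2 and the transporter subunit Emb. They were chosen by name, and all 10 were found among the 19937 genes with a probe set that carries a single symbol. Each had 1 such probe set.

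The genes were measured in J558, a plasma-cell tumour line of the mouse, on 10 whole-transcript arrays. There were 4 cultures with Pax5 G183S, which carries serine in place of glycine in the conserved octapeptide motif of the protein, 3 cultures with wild-type Pax5 (Pax5 WT) and 3 cultures with empty vector. All cultures, the controls included, received a murine stem cell virus vector with puromycin resistance and green fluorescent protein, underwent 5 to 7 days of puromycin selection and were sorted for green fluorescence and IgM, so each value describes cells that passed the sort. The constructs were driven by a retroviral vector in 1 cell line, and the labels call the replicates independent and biological.

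The Pax5 transcript was read in every array as a check of the labels. It read 10.22, 10.36, 9.38 and 9.96 log2 units in the Pax5 G183S arrays, 10.67, 10.09 and 10.05 in the Pax5 WT arrays, and 7.10, 6.84 and 7.01 in the empty-vector arrays. All arrays with a construct lay above all empty-vector arrays, by a log2 difference of 3.0 for Pax5 G183S (limma adjusted p = 0.00117) and 3.29 for Pax5 WT (limma adjusted p = 0.00108), and both passed whichever array was left out. By their mean over all arrays, 8 of 8 plasma-cell markers, 0 of 8 T-cell markers and 1 of 8 myeloid markers lay above the median level of all genes. By the empty-vector mean alone the counts were 8, 1 (Cd4, at the 58th percentile) and 2 (with Mpo, at the 52.2nd). The Cd4 mean was raised by empty-vector replicate 2, at 9.29 log2 units against 7.09 and 7.60 in the others. In the other marker lists, by the mean over all arrays, 5 of 6 B-cell and 3 of 4 stromal markers lay above it. The counts were 0 of 4 for mast cells and basophils and 0 of 3 for erythroid cells and progenitors. The stromal genes above it were Col1a1, Col1a2 and Col3a1 (7.65, 7.35 and 7.28 log2 units). A level above the median therefore does not by itself show expression. Array medians lay between 6.81 and 6.94 log2 units. With 3 or 4 arrays in a group, precision is limited by their number and by the spread of each gene within groups.

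Repression can show only where a gene is expressed beforehand, so the level with empty vector was described first. Values are log2 units after robust multi-array averaging (RMA). A percentile places the empty-vector mean of a probe set among those of all 19937 genes. Probe sets bind their targets with unequal strength, so a percentile describes signal, not the number of transcripts. As a gauge of low signal, the 1015 olfactory receptor genes, which are known for expression in sensory neurons of the nose, had empty-vector means with a median of 4.61 and a 95th percentile of 6.36. Of the 10 genes, 4 lay above the median of all genes, which was 7.23 log2 units over all arrays. These were Cd28, Lmo2, Grap2 and Notch1, at the 98.7th, 87.5th, 80.4th and 78.1st percentile with empty vector. The other 6 lay below it: Flt3 and Lat, at the 42.6th and 39.4th percentile, exceeded the 95th percentile of the olfactory receptor genes, and Fcer1g, Csf1r, Ccr2 and Emb, at the 30.8th, 25.3rd, 7.31st and 2.33rd percentile, did not.

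**Figure D1:**
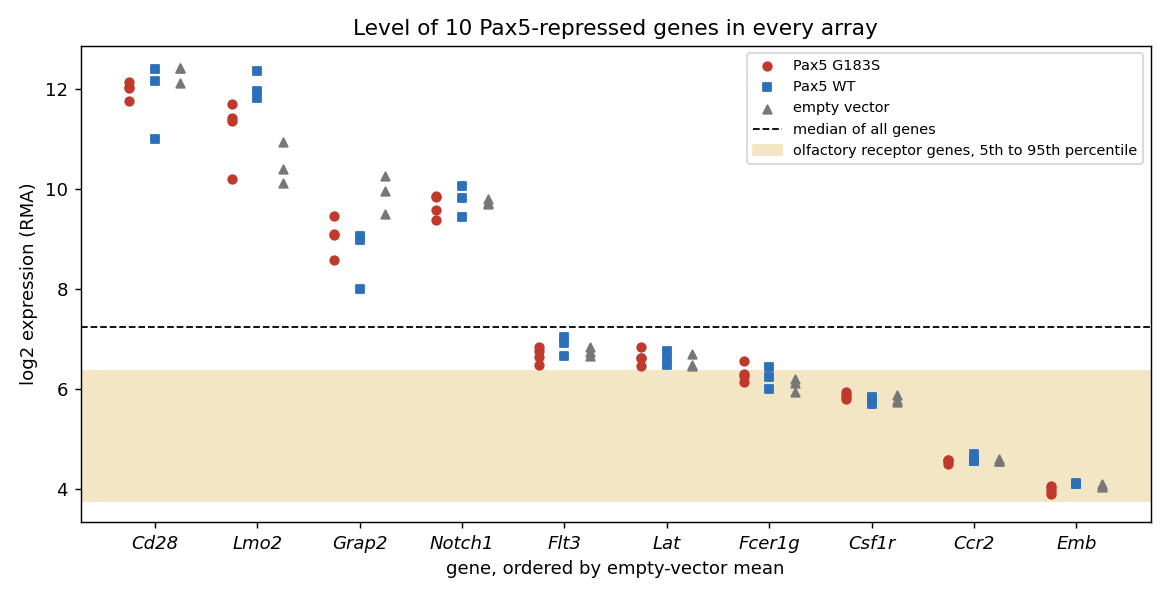
Log2 expression (vertical axis, RMA log2 units) of the 10 genes in each Pax5 G183S, Pax5 WT and empty-vector array, 1 point per array, with genes ordered by their empty-vector mean. Cd28, Lmo2, Grap2 and Notch1 lie above the dashed median of all genes (7.23), and the other 6 lie below it, with Fcer1g, Csf1r, Ccr2 and Emb having empty-vector means inside the shaded range of olfactory receptor genes (3.76 to 6.36).

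Promoter sequence from RefSeq (build GRCm38.p6) was at hand for 7 of the 10 genes, Notch1, Flt3, Ccr2, Fcer1g, Emb, Grap2 and Lat. The 250 bases before the start site are shown, 5′ to 3′ on the gene's strand, for Grap2, which had lower values with both constructs, for Notch1, which read above the median level and had similar group means, and for Flt3, a textbook target of Pax5 repression with dim signal here. Capitals mark the letters GGAAGT or their reverse complement, the core bound by Ets factors such as PU.1, a frequent neighbour of Pax5 at B-cell genes.
Grap2, chr15:80623233-80623482, plus strand: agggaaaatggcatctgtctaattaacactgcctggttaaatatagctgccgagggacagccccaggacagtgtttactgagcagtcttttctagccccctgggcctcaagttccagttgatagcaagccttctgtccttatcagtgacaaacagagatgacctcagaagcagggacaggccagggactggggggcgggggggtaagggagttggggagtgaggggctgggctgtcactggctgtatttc
Notch1, chr2:26503823-26504072, minus strand: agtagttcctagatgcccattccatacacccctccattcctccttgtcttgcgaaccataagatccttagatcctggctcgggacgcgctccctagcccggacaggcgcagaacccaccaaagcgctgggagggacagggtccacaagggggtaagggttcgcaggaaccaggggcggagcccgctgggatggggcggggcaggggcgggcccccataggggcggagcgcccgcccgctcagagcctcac
Flt3, chr5:147400490-147400739, minus strand: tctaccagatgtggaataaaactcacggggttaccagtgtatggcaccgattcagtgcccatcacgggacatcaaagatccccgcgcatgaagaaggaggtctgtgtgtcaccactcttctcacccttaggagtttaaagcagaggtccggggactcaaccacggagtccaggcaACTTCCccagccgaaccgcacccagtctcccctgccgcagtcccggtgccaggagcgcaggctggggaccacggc

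Letters from the 3′ end of the long Pax5 recognition sequence were searched for on both strands of the same 250 bases. GCGTGAC was in 0 of the 7 windows, against 1.78% of all 32851 promoter windows. The looser forms GCNTGAC and GNGTGAC, which overlap with it, were also in 0 of 7, against 8.79% and 11.7% of all windows. GGAAGT was in 1 of 7, that of Flt3, 75 bases before the start, against 19.7% of all windows. The Notch1 window was 66.0% G and C and the Grap2 window 54.4%. The start site used for Grap2 lies inside the annotated gene (chr15:80572597-80652854), 50886 bases after its first base, so the window belongs to an inner start and other starts of the gene are not shown. A match or its absence describes the letters of these windows alone.

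None of the 10 genes passed the threshold in any comparison, and Grap2 and Lmo2 had the largest differences from empty vector. Grap2 was lower with each construct and Lmo2 was higher with Pax5 WT, each without overlap between the groups. In the test across all genes (limma, two-sided, adjusted p under 0.05), 0 of 10 members were called between Pax5 WT and empty vector, where 1.88% of all genes were called. Between Pax5 G183S and empty vector 0 of 10 were called, against 0.311% of all genes, and between Pax5 G183S and Pax5 WT 0 of 10, against 0% of all genes. Without Pax5 G183S replicate 1 that last comparison called 1113 genes and again 0 members. With unadjusted p under 0.05 the counts were 2 of 10 for Pax5 WT against empty vector (15.9% of all genes), 1 of 10 for Pax5 G183S against empty vector (11.3%) and 1 of 10 for Pax5 G183S against Pax5 WT (9.48%). These shares are near those of all genes.

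**Figure D2:**
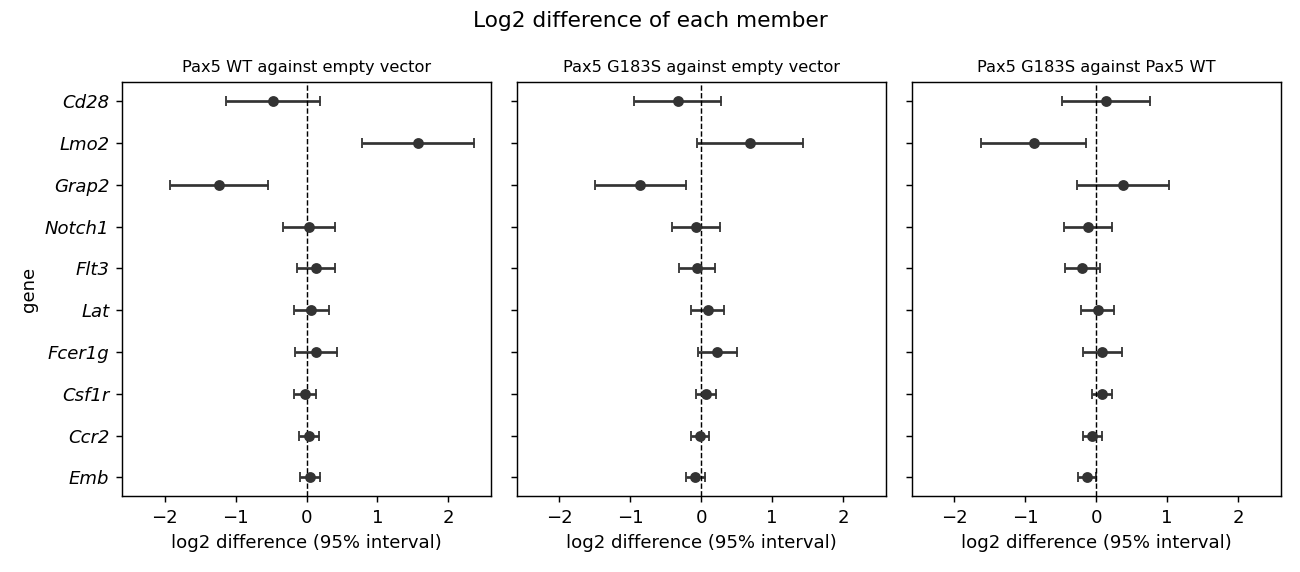
Log2 difference (horizontal axis) of each of the 10 genes with its 95% interval from limma, in 3 panels for Pax5 WT against empty vector, Pax5 G183S against empty vector and Pax5 G183S against Pax5 WT. The Grap2 interval lies below 0 in both comparisons with empty vector, the Lmo2 interval lies above 0 for Pax5 WT against empty vector and below 0 for Pax5 G183S against Pax5 WT, and the 6 dim genes have narrow intervals that include 0.

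Grap2 encodes Gads, an adaptor that links Lat to the scaffold Slp-76 below the T-cell receptor. It read 9.10, 8.57, 9.07 and 9.45 log2 units in the Pax5 G183S arrays, 7.99, 8.96 and 9.04 in the Pax5 WT arrays, and 9.50, 10.26 and 9.95 in the empty-vector arrays. Every array with a Pax5 construct lay below every empty-vector array, although Pax5 G183S replicate 4 came close to empty-vector replicate 1. The mean was 8.67 ± 0.58 with Pax5 WT and 9.90 ± 0.39 with empty vector (SD, n = 3 each), a log2 difference of -1.24 ± 0.31 SE with a 95% interval from -1.92 to -0.55, or 2.36-fold lower. It did not pass after adjustment (limma adjusted p = 0.0812). For Pax5 G183S, with a mean of 9.05 ± 0.36 (SD, n = 4), the difference from empty vector was -0.86 ± 0.29 SE, 1.81-fold lower, with an interval from -1.5 to -0.21 (limma adjusted p = 0.256). Groups without overlap and lower values were found for 12.5% of all genes with Pax5 WT and for 6.56% with Pax5 G183S, and for 1 of the 10 members, Grap2, in each. Among genes above the median level, where Grap2 lay, the shares were 20.6% with Pax5 WT and 9.7% with Pax5 G183S. With Pax5 G183S, 0 of 10 members were higher than empty vector without overlap, against 5.02% of all genes. The difference between Pax5 G183S and Pax5 WT, 0.38 ± 0.29 SE with an interval from -0.26 to 1.02, did not pass (limma adjusted p = 0.666). With array weights Grap2 passed in both comparisons with empty vector (limma adjusted p = 0.0448 for Pax5 G183S and 0.0192 for Pax5 WT), a setting that called 1449 and 2576 genes in all, against 62 and 374 without weights. Over the arrays left out it passed in 0 of 10 fits in each of the 2 comparisons. The log2 difference then lay between -1.06 and -0.68 with Pax5 G183S (limma adjusted p up to 0.67). With Pax5 WT it lay between -1.44 and -0.90 (limma adjusted p up to 0.287). Both comparisons share the empty-vector arrays. In bulk RNA such as this, fewer cells that express a gene and less RNA of it per cell cannot be told apart.

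Lmo2 encodes a bridging protein that joins basic helix-loop-helix and GATA factors through Ldb1 in blood progenitors, and it read higher with Pax5 WT, the direction opposite to its description as repressed. It read 11.36, 11.42, 10.19 and 11.69 log2 units in the Pax5 G183S arrays, 11.82, 11.96 and 12.36 in the Pax5 WT arrays, and 10.11, 10.94 and 10.38 in the empty-vector arrays. All 3 Pax5 WT arrays lay above every other array, and Pax5 G183S replicate 3 lay among the empty-vector arrays. That array also had the lowest Pax5 reading of the 7 arrays with a construct, 9.38. Among the Pax5 WT arrays the order was the reverse, with the highest Pax5 (10.67) and lowest Lmo2 (11.82) in replicate 1. Replicate 3 had the lowest Pax5 (10.05) and the highest Lmo2 (12.36) of that group. Whether Lmo2 followed the Pax5 level was not tested. The Lmo2 mean was 12.05 ± 0.28 with Pax5 WT and 10.48 ± 0.42 with empty vector (SD, n = 3 each). Their log2 difference was 1.57 ± 0.36 SE, 2.97-fold higher, with a 95% interval from 0.78 to 2.36, and did not pass (limma adjusted p = 0.0596). Higher values without overlap were found for 11.5% of all genes in this comparison, and for 12.8% of genes above the median level. Lmo2 passed when Pax5 G183S replicate 1 or 3, which enter through the shared estimate of spread, was left out (limma adjusted p = 0.0378 and 0.0130), with only the groups compared (0.0217), with dim genes left out (0.0407) and with array weights (0.00650). In the other alternatives it did not pass, with a limma adjusted p of up to 0.193, and 2 of the 10 fits without 1 array passed. The log2 difference was between 1.39 and 1.80 in all 18 alternatives.

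With Pax5 G183S, Lmo2 averaged 11.17 ± 0.66 (SD, n = 4), 0.69 ± 0.33 SE log2 units above empty vector, with an interval from -0.05 to 1.43 (limma adjusted p = 0.492). Without replicate 3 of Pax5 G183S the difference was 1.01 (limma adjusted p = 0.0799). Between Pax5 G183S and Pax5 WT, Lmo2 differed by -0.88 ± 0.33 SE (interval -1.62 to -0.14), and the groups did not overlap, as was the case downward for 2 of 10 members and for 4.17% of all genes, and upward for 0 of 10 members and 2.33% of all genes. The difference did not pass (limma adjusted p = 0.508) and was -0.56 without replicate 3 of Pax5 G183S. No member was called in any comparison, so the genes most like 1 member were sought for Lmo2, which had the largest difference between Pax5 WT and empty vector. Over the 10 arrays and among 16931 genes, the highest Pearson correlations were those of Ttc9c (0.974), Pxk (0.947) and Nrros (0.943). They are the highest of many, and all arrays share the differences between groups.

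**Figure D3:**
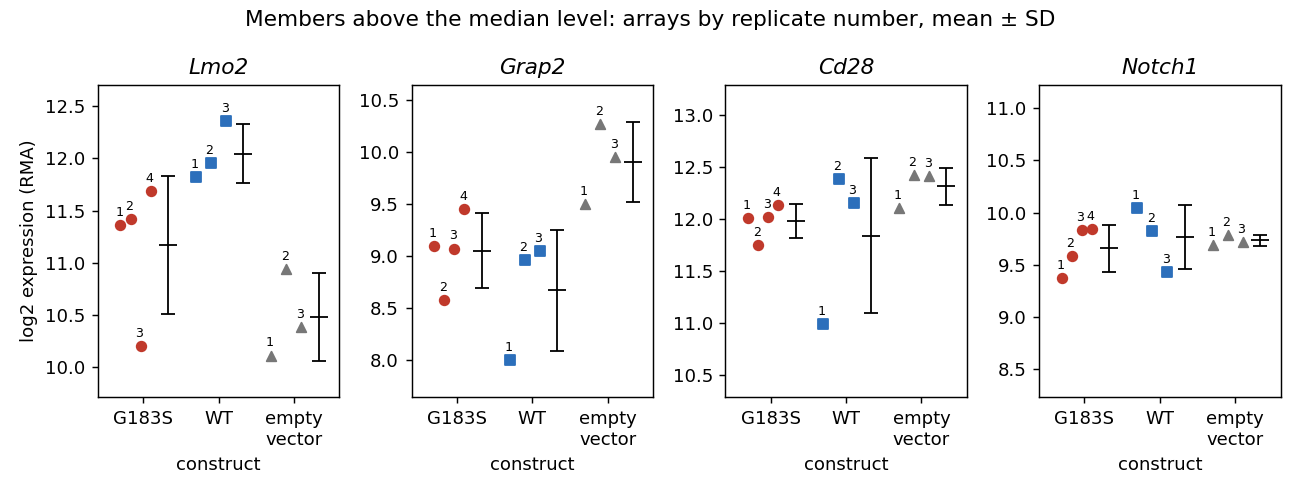
Log2 expression (vertical axis, RMA log2 units, 3 units high in each panel) of Lmo2, Grap2, Cd28 and Notch1 by construct, with each array marked by its replicate number and the bar beside it giving the mean ± SD. For Lmo2 the Pax5 WT arrays (11.82 to 12.36) lie above all others, for Grap2 the empty-vector arrays (9.50 to 10.26) lie above all others, for Cd28 Pax5 WT replicate 1 (10.99) lies below all others, and for Notch1 the groups overlap.

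Cd28, the co-stimulatory receptor of T cells that normal and malignant plasma cells are also known to carry, lay at the 98.7th percentile with empty vector. It read 12.01, 11.76, 12.03 and 12.14 log2 units in the Pax5 G183S arrays, 10.99, 12.38 and 12.15 in the Pax5 WT arrays, and 12.11, 12.42 and 12.42 in the empty-vector arrays. Pax5 WT replicate 1 lay below the other 9 arrays, which spanned 11.76 to 12.42, and was also the array that had the lowest Grap2 and the highest Pax5 reading. Cd28 was 0.47 log2 units lower with Pax5 WT than with empty vector (-0.47 ± 0.30 SE, interval -1.13 to 0.18, limma adjusted p = 0.485), and without Pax5 WT replicate 1 the log2 difference was -0.05. With Pax5 G183S it was -0.33 ± 0.28 SE (interval -0.95 to 0.28, limma adjusted p = 0.766). Between Pax5 G183S and Pax5 WT the difference was 0.14 (interval -0.48 to 0.76, limma adjusted p = 0.872) and turned to -0.28 without Pax5 WT replicate 1.

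Notch1, the receptor that directs progenitors to the T-cell fate, read above the median level and averaged 9.66 ± 0.22 with Pax5 G183S (SD, n = 4), 9.77 ± 0.31 with Pax5 WT and 9.73 ± 0.05 with empty vector (SD, n = 3 each). It read 9.37, 9.58, 9.83 and 9.84 log2 units in the Pax5 G183S arrays, 10.05, 9.82 and 9.43 in the Pax5 WT arrays, and 9.69, 9.79 and 9.72 in the empty-vector arrays. The groups overlapped throughout. The difference from empty vector was -0.08 ± 0.15 SE with Pax5 G183S (interval -0.41 to 0.26, limma adjusted p = 0.933) and 0.03 ± 0.16 SE with Pax5 WT (interval -0.33 to 0.39, limma adjusted p = 0.949). For Pax5 G183S against Pax5 WT it was -0.11 (interval -0.45 to 0.23).

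The 6 dim genes spanned between 0.190 (Ccr2) and 0.614 (Fcer1g) log2 units over the 10 arrays, against 0.673 for Notch1. Flt3, a growth factor receptor of early lymphoid and myeloid progenitors, read 6.76, 6.63, 6.46 and 6.83 log2 units in the Pax5 G183S arrays, 6.91, 6.64 and 7.03 in the Pax5 WT arrays, and 6.64, 6.83 and 6.73 in the empty-vector arrays. Csf1r, the macrophage colony-stimulating factor receptor, lay between 5.69 and 5.92 in all 10 arrays, and its difference from empty vector was 0.07 with Pax5 G183S (interval -0.08 to 0.21) and -0.02 with Pax5 WT (interval -0.18 to 0.13). Neither receptor gene showed groups that were apart. For Flt3 the log2 difference from empty vector was -0.06 with Pax5 G183S (interval -0.31 to 0.19) and 0.13 with Pax5 WT (interval -0.14 to 0.40).

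Lat, the membrane adaptor phosphorylated after T-cell receptor engagement, read 6.46, 6.62, 6.83 and 6.62 with Pax5 G183S, 6.47, 6.74 and 6.61 with Pax5 WT and 6.70, 6.48 and 6.45 with empty vector, all in log2 units. Fcer1g, the signalling chain shared by activating Fc receptors of myeloid and mast cells, read 6.30, 6.13, 6.55 and 6.26 with Pax5 G183S, 5.99, 6.23 and 6.43 with Pax5 WT and 6.20, 5.93 and 6.11 with empty vector. The groups overlapped for both genes. Fcer1g had the largest mean difference of the dim genes, 0.23 ± 0.12 SE higher with Pax5 G183S than with empty vector (interval -0.05 to 0.50, limma adjusted p = 0.572). For Lat the log2 differences were 0.09 with Pax5 G183S (interval -0.14 to 0.32) and 0.07 with Pax5 WT (interval -0.18 to 0.31).

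Ccr2, the receptor that brings monocytes out of the marrow, lay between 4.50 and 4.69 log2 units in all arrays. Emb, which encodes embigin, a membrane glycoprotein that escorts monocarboxylate transporters, lay between 3.88 and 4.06 with Pax5 G183S, 4.09 and 4.12 with Pax5 WT and 4.03 and 4.09 with empty vector. Emb was the other gene, with Lmo2, whose Pax5 G183S and Pax5 WT arrays did not overlap, yet the difference was -0.13 ± 0.06 SE (interval -0.26 to 0.0037, limma adjusted p = 0.528) at a signal near the bottom of the array. For Ccr2 the differences from empty vector were -0.01 with Pax5 G183S (interval -0.14 to 0.12) and 0.04 with Pax5 WT (interval -0.10 to 0.18). Signal this low cannot show a decrease of a transcript that was absent, and whether any of the 6 was expressed is not known, because detection calls were not used here.

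As a list the 10 genes had median differences near 0. With Pax5 WT, 3 of 10 had a mean below that of empty vector, against 46.1% of all genes, and the median log2 difference was 0.04, against 0.01 over all genes. With Pax5 G183S, 6 of 10 were below, against 51.2% of all genes, with a median of -0.04, against -0.0033. Between Pax5 G183S and Pax5 WT, 5 of 10 were below, against 56.5% of all genes. For the 4 members above the median level the absolute log2 difference of Pax5 WT from empty vector had a median of 0.86, against 0.16 for all genes above the median level, and for the 6 dim members it was 0.06, against 0.07 for all genes below the median level. Of the 4 members above the median level, 2 read lower with Pax5 WT and the rest higher. Their within-group SDs lay high among all genes, at the 98.3rd (Lmo2), 97.2nd (Grap2), 96.8th (Cd28) and 82.3rd (Notch1) percentile. The part of this spread in their larger differences was not tested.

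Other genes of the same pathways were read from lists of known members. For comparison, 0.311% of all genes passed with Pax5 G183S and 1.88% with Pax5 WT, in either direction. Among 5 measured genes known as repressed by Pax5 in other work (Prdm1, Xbp1, Jchain, Ccl3 and Ccl9) 0 passed with either construct. The smallest p was that of Xbp1, the plasma-cell secretory factor, with a log2 difference of -0.33 for Pax5 G183S against empty vector (limma adjusted p = 0.417). Of 20 genes of proximal T-cell signalling, 1 passed, Cd3g, a chain of the T-cell receptor complex. It read 4.92, 4.87, 5.26 and 5.03 log2 units with Pax5 G183S, 4.90, 5.25 and 5.09 with Pax5 WT, and 6.54, 6.04 and 5.93 with empty vector, all below the median level of all genes. Its empty-vector mean, 6.17, also lay below the 95th percentile of the olfactory receptor genes, 6.36, so the signal was low. Cd3g fell, with a log2 difference of -1.15 with Pax5 G183S (limma adjusted p = 0.0171) and -1.09 with Pax5 WT (limma adjusted p = 0.0172). The call was lost without empty-vector replicate 2 or 3 in both comparisons, without Pax5 WT replicate 1 for Pax5 WT, and without Pax5 G183S replicate 2 or 4 for Pax5 G183S, while the difference stayed between -1.27 and -0.96 with Pax5 G183S and between -1.21 and -0.91 with Pax5 WT. Of 8 T-cell markers 1, Cd3g, passed, and the list median was -0.06 log2 units with Pax5 G183S and 0.05 with Pax5 WT. The mean over the 8 lay between 6.08 and 6.39 log2 units in the Pax5 G183S arrays, 6.10 and 6.29 in the Pax5 WT arrays and 6.45 and 6.66 in the empty-vector arrays. The lower mean came largely from Cd3g and Cd4. Cd4, named after its values were seen, differed by -1.41 with Pax5 G183S and -1.39 with Pax5 WT, which did not pass (limma adjusted p = 0.181 and 0.150). Its empty-vector arrays read 7.09, 9.29 and 7.60 log2 units, so replicate 2 enlarged both differences. With Pax5 WT 5 of the 8 markers read slightly higher. The part of these 2 markers in the Grap2 values was not tested.

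**Figure D4:**
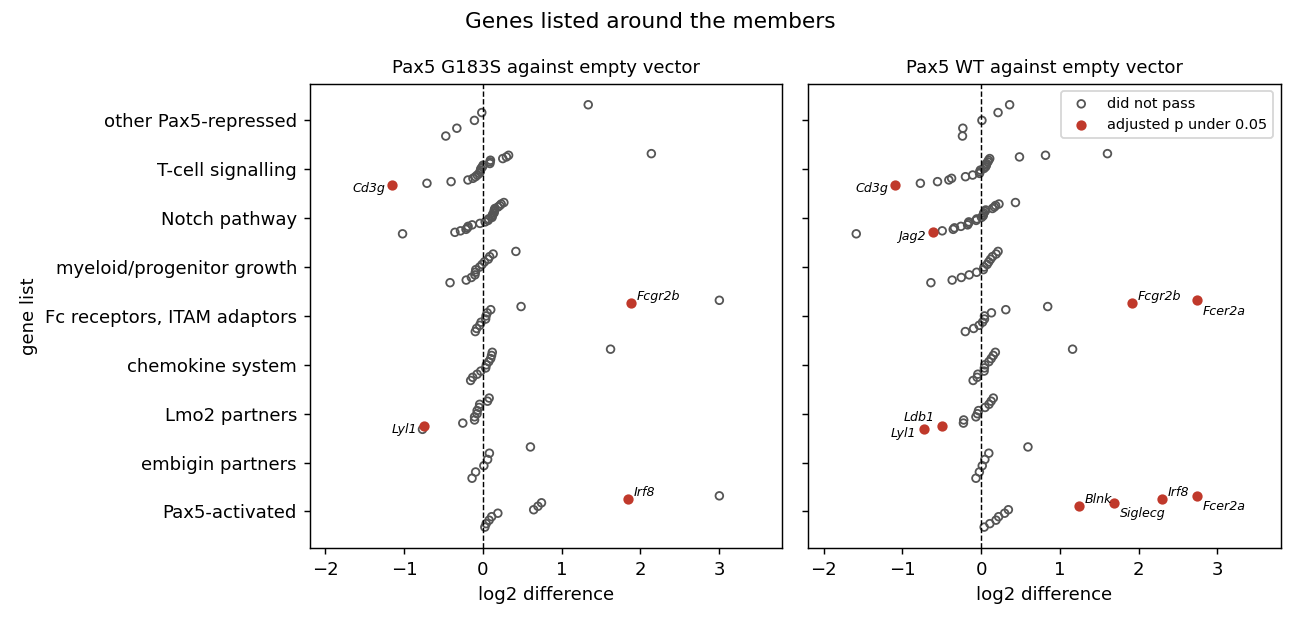
Log2 difference (horizontal axis) of every measured gene of the 9 lists around the members, 1 point per gene, for Pax5 G183S against empty vector on the left and Pax5 WT against empty vector on the right, with filled points for genes past limma's adjusted p of 0.05. Filled points below 0 are Cd3g and Lyl1 in both panels and Jag2 and Ldb1 with Pax5 WT, and those above 0 are Fcgr2b and Irf8 in both panels and Fcer2a, Siglecg and Blnk with Pax5 WT.

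The partners of Lmo2 included genes that fell while Lmo2 read higher. Of 11 measured, 1 fell with Pax5 G183S and 2 with Pax5 WT, where 0.311% and 1.88% of all genes were called in either direction. The list median was -0.07 log2 units for Pax5 G183S and -0.05 for Pax5 WT. Lyl1, a basic helix-loop-helix partner of Lmo2 and itself a factor of blood progenitors, read 10.68, 10.38, 10.60 and 10.67 log2 units with Pax5 G183S, 10.65, 10.68 and 10.47 with Pax5 WT, and 11.27, 11.44 and 11.26 with empty vector. Every array with a construct lay below every empty-vector array. Lyl1 fell by 0.74 ± 0.09 SE log2 units with Pax5 G183S (limma adjusted p = 0.0129) and by 0.73 ± 0.10 SE with Pax5 WT (limma adjusted p = 0.0126), calls that were lost without empty-vector replicate 2 or 3. Over the arrays left out the Lyl1 difference stayed between -0.77 and -0.67 with Pax5 G183S and between -0.77 and -0.66 with Pax5 WT. Without empty-vector replicate 2 or 3 the calls over all genes fell to 11 and 8 with Pax5 G183S and to 21 and 6 with Pax5 WT. Ldb1, the adaptor that Lmo2 binds, fell with Pax5 WT (log2 difference -0.50 ± 0.09 SE, limma adjusted p = 0.0342), a call kept without Pax5 WT replicate 3 or Pax5 G183S replicate 1 or 3 and lost without any other array. With Pax5 G183S its log2 difference was -0.25 (limma adjusted p = 0.272).

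In the Notch pathway 1 of 22 measured genes passed (with Pax5 WT, against 1.88% of all genes), Jag2, a Notch ligand. It read 9.28, 9.27, 9.16 and 9.45 log2 units with Pax5 G183S, 9.03, 8.95 and 8.63 with Pax5 WT and 9.54, 9.40 and 9.49 with empty vector, and fell with Pax5 WT (log2 difference -0.61 ± 0.11 SE, limma adjusted p = 0.0299). The call was lost without Pax5 G183S replicate 2, Pax5 WT replicate 2 or any empty-vector array. Among 13 growth factors and regulators around Csf1r and Flt3, 0 passed. The smallest p was that of Csf1, a ligand of Csf1r (0.42 log2 units for Pax5 G183S against empty vector, limma adjusted p = 0.157). Of 11 chemokine receptors and ligands around Ccr2, 0 passed, with Ccr7, a lymph-node homing receptor, at 1.62 for Pax5 G183S (limma adjusted p = 0.103). Of 6 partners of embigin, 0 passed. The lactate transporter gene Slc16a1 was at 0.60 for Pax5 G183S (limma adjusted p = 0.166) and 0.59 for Pax5 WT (limma adjusted p = 0.138).

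Among 11 Fc receptors and adaptors listed around Fcer1g, 1 rose with Pax5 G183S and 2 with Pax5 WT, all of them receptors known from B cells. The shares of all genes called in either direction were 0.311% with Pax5 G183S and 1.88% with Pax5 WT. Fcgr2b, the inhibitory IgG receptor, read 12.27, 12.21, 12.07 and 12.26 log2 units with Pax5 G183S, 12.02, 12.07 and 12.59 with Pax5 WT, and 10.50, 10.35 and 10.10 with empty vector. It rose by 1.89 log2 units with Pax5 G183S and by 1.91 with Pax5 WT (limma adjusted p = 0.00117 and 0.00142), whichever array was left out. Fcer2a, the low-affinity IgE receptor, read 3.0 log2 units higher with Pax5 G183S, which did not pass (limma adjusted p = 0.0501), and rose with Pax5 WT (log2 difference 2.74, limma adjusted p = 0.0412), a call kept without Pax5 WT replicate 1 or Pax5 G183S replicate 1 or 3 and lost without any other array. The difference between Fcer1g and these genes was not tested.

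Of 10 measured genes that Pax5 is known to activate, 1 rose with Pax5 G183S (Irf8) and 4 with Pax5 WT (Blnk, Irf8, Siglecg and Fcer2a). Calls over all genes were also fewer with Pax5 G183S, 0.311% against 1.88% with Pax5 WT, in either direction. The median of the 10 genes was 0.42 log2 units with Pax5 G183S and 0.32 with Pax5 WT. Irf8, a transcription factor of B and myeloid cells, rose by 1.85 log2 units with Pax5 G183S (limma adjusted p = 0.0171), a call lost without Pax5 G183S replicate 2 or 4 or empty-vector replicate 2 or 3. With Pax5 WT it rose by 2.29 (limma adjusted p = 0.00767), a call lost without empty-vector replicate 3. Siglecg, an inhibitory receptor of B cells, rose by 1.69 with Pax5 WT whichever array was left out (limma adjusted p = 0.00324), against a difference of 0.74 with Pax5 G183S that did not pass (limma adjusted p = 0.0762). Blnk, the adaptor below the B-cell receptor, rose by 1.25 with Pax5 WT (limma adjusted p = 0.0216), a call lost without Pax5 WT replicate 1 or empty-vector replicate 2 or 3. The Siglecg difference of Pax5 G183S from Pax5 WT, -0.95, did not pass (limma adjusted p = 0.263), nor did that of any other listed gene.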

How the data were processed

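RNA from 10 J558 cultures was measured on Affymetrix whole-transcript arrays from 100 ng of total RNA, per the labels' protocols. The authors deposited log2 values for 34760 probe sets. The submitters' processing notes list RMA and Partek, with neither version nor role. Quantile normalization, a step of RMA, hides any change that most genes share. The platform annotation gave 1 symbol for 21640 probe sets, and the probe set with the highest mean was kept per gene, which left 19937 genes.

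A single limma fit (version 3.58.1, R 4.3.3) over all 10 arrays estimated a mean for each group, with 7 residual degrees of freedom plus 2.88 from the prior. P-values were adjusted by Benjamini-Hochberg across 19937 genes. Each sets a difference between groups against the spread between cultures within groups, estimated over all 10 arrays and moderated by the prior. Fits were tested on simulated data, and repeated under the alternatives given at the end. Figures were drawn with matplotlib 3.10.9. No detection calls or scan dates were used, so no batch could be tested. Replicate numbers were not used as pairs in the reported fit, because the labels call the arrays independent biological replicates and give no batch. Not every same-numbered pair correlated above 0.1 in its deviations from the group means. Such correlations cannot decide whether some of the arrays were paired. Pax5 G183S and Pax5 WT correlated at 0.507 for replicate 1, -0.162 for replicate 2 and 0.455 for replicate 3, and the other pairs lay between -0.162 and 0.108.

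Members and lists were chosen with earlier results of these data known. Named genes are Pax5, the 10 members, the called genes of each list or else the gene with the smallest p, and the 3 genes most correlated with a member. The plasma-cell, B-cell, T-cell, myeloid, mast-cell, erythroid and stromal lists are markers. Some genes of the pathway lists are not reported here.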

Additional observations from a re-analysis of the deposited data

How the results depend on the processing

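Each of the 10 genes was refitted under 18 alternatives per comparison (17 for the 6 dim genes): leaving out each array, the replicate number as a block, only the groups compared, arrays centred on their medians, dim genes left out, array weights, a trended robust prior, the mean of probe sets, and all probe sets tested singly. Of the resulting gene values 496 kept direction and side of the threshold, 7 newly passed and 19 turned sign. For Pax5 WT against empty vector the count of members called, 0, became 1 (Lmo2) with only the groups compared (587 genes called in all), 1 (Lmo2) with dim genes left out (371 of 9969) and 2 (Lmo2 and Grap2) with array weights (2576, against 374 of 19937 in the reported fit), and ranged from 0 to 1 over the arrays left out. For Pax5 G183S against empty vector it became 1 (Grap2) with array weights (1449 genes called in all, against 62). Between Pax5 G183S and Pax5 WT it stayed 0, while the calls over all genes, 0, became 1113 without Pax5 G183S replicate 1 and 2752 with array weights. With the replicate block it was 0 in all 3 comparisons. Some of these follow from fewer genes or arrays, and otherwise the cause was not tested.

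Values that turned sign were small, apart from Cd28 between Pax5 G183S and Pax5 WT, which was -0.26 with array weights and ranged from -0.28 to 0.41 over the arrays left out. Against empty vector, Pax5 WT gave -0.0019 for Notch1 with centred arrays and -0.025 for Flt3 with array weights, and Pax5 G183S gave 0.0031 for Ccr2 with the replicate block. Between Pax5 G183S and Pax5 WT, Lat was -0.062 with array weights. Over the arrays left out, Pax5 WT against empty vector ranged from -0.11 to 0.20 for Notch1, -0.0075 to 0.064 for Ccr2, -0.056 to 0.020 for Csf1r and -0.0019 to 0.14 for Lat. Pax5 G183S against empty vector ranged from -0.14 to 0.019 for Notch1, -0.12 to 0.0066 for Flt3 and -0.021 to 0.0031 for Ccr2. Pax5 G183S against Pax5 WT ranged from -0.044 to 0.092 for Lat, -0.28 to 0.032 for Notch1 and -0.022 to 0.19 for Fcer1g. The number of arrays and the low signal of 6 members limit what could be seen. The alternatives for called list genes were added after the data were seen.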
